A study of Mus musculus with 2 samples.

Results

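The genes described here carry glucose from the cell surface to pyruvate, turn pyruvate into lactate, or bring it into mitochondria. They were chosen by symbol: 32 of the 32245 gene symbols (32285 identifiers) of the count matrices, and all 32 were found. Each symbol had 1 row except Aldoa, whose 2 rows were summed, the second of them with 0 UMIs in the WT library and 2 in the library labelled KO. The source was lung of uninfected mice of 5-7 weeks, from which γδ T cells were sorted and sequenced as single cells, with 1 library for each of 2 groups. In the WT library the cells were Vγ1- γδ T cells of C57BL/6NCrl mice. The library labelled KO held Vγ1+ γδ T cells of the strain B6.Cg-Tcrgtm1lku(B6.Vg4-/-Vg6-/-), which lacks the Vγ4 and Vγ6 chains. The labels and methods do not state how many animals made up each pool. The genes were described as a summed share of unique molecular identifiers (UMIs, 1 per captured transcript molecule) and 1 by 1. The cells were WT cells with UMIs of Tcrg-V6 and of no other γ variable gene (520 cells), WT cells with only Tcrg-V4 (410 cells), and KO-labelled cells with a Tcrg-V1 UMI (2880 cells), each also divided by detection of Tmem176b and Ly6c2.

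Glycolysis splits glucose into pyruvate in the cytosol. Glucose enters through GLUT transporters, hexokinase traps it as a phosphate, phosphofructokinase commits it, and the steps from glyceraldehyde phosphate onwards return ATP. Pyruvate is either reduced to lactate, which leaves through monocarboxylate transporters, or is carried into mitochondria and turned into acetyl-CoA by the pyruvate dehydrogenase complex. T cells raise this pathway on activation, and the transcription factor HIF-1α switches on many of its genes through promoter elements with the core ACGTG or GCGTG. Earlier work on mouse γδ T cells described IFN-γ producers as leaning on glycolysis and IL-17 producers as leaning on mitochondrial oxidation of lipids. Tmem176b was used here as a marker of IL-17-type (γδ17) cells, and Ly6c2 as a marker of memory-like type 1 (γδ1) cells. Neither UMI was exclusive to these cells, since both were also found in cells with B cell markers. Myeloid marker levels are given below with the splits of KO-labelled Tcrg-V1 and WT Tcrg-V4-only cells.

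The WT library held 9173997 UMIs in 2520 barcodes (2505 cells kept, median 3288 UMIs), and the library labelled KO 26436826 UMIs in 6688 barcodes (6634 cells kept, median 3521 UMIs). The 2 libraries shared 23 barcodes. With 1 library per group no test between groups is possible, so ratios are given with exact 95% intervals that cover counting error only, and cells of a library are not replicates. Genotype, strain, sort and library cannot be told apart. Summed levels of 4 Y-linked genes, 113 CPM (UMIs per 1000000 UMIs of the group) in WT Tcrg-V6-only cells, 139 CPM in WT Tcrg-V4-only cells and 1.85 CPM in KO-labelled Tcrg-V1 cells, also put the sex make-up of the pools with the library. Tcrg-V6 had 0 UMIs in the library labelled KO, which allows a share of up to 0.0452% of cells with a UMI (3 counts over 6634 cells). Tcrg-V4, which that label says is absent, had a UMI in 14.9% of its cells (exact interval 14.1 to 15.8%) against 21.4% in the WT library (19.8 to 23.1%), and in 21.2% of KO-labelled Tcrg-V1 cells. Tcrg-V4 UMIs therefore separate these libraries little, and the WT Tcrg-V4-only group is limited by this. The 5 T cell markers (Cd3e, Cd3d, Cd3g, Cd247, Trdc) were detected in all 3 groups, at a summed 2783 to 3968 CPM. A Tmem176b UMI was found in 88.1% of WT Tcrg-V6-only, 41.0% of WT Tcrg-V4-only and 31.6% of KO-labelled Tcrg-V1 cells (median 3602.5, 3427 and 4186 UMIs). In cells with 5 or more B cell marker UMIs, which should lack it, it was found in 12.5% (WT, 40 cells, median 2446 UMIs) and 12.1% (KO-labelled, 33 cells, median 3838 UMIs). Ly6c2 was found in 2.88%, 25.1% and 21.6% of the groups, and in 10.0% and 15.2% of those B cell marker cells, so the share in WT Tcrg-V6-only cells is at background. The KO-labelled share lies within the exact interval of its background (5.11 to 31.9%) and the WT Tcrg-V4-only share above that of its own (2.79 to 23.7%), so a single Ly6c2 UMI is weak evidence of expression in 1 cell. Summed over the other 9 type 1 markers, leaving out Ly6c2, KO-labelled Tcrg-V1 cells with a Ly6c2 UMI were at 6445 CPM against 2398 CPM without.

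Because HIF-1α acts through promoter letters, the start regions of the genes were searched for ACGTG or GCGTG on either strand (CACGT or CACGC on the opposite one, with overlaps counted). RefSeq promoters of GRCm38.p6, from 250 bases before to 50 after each start, were present for 31 of the 32 genes (not Slc2a3). The letters occurred in 34 of 45 member promoters (75.6%) and in the promoters of 26 of 31 genes (83.9%). Over all 32851 promoters of the table the share was 43.8%, and over all 27025 genes 46.7%; base composition was not matched between these sets. Shown are 60-base stretches before the start of 5 genes that were higher in WT Tcrg-V6-only cells and of Ldhb, which was lower there, 5′ to 3′ on the strand of the gene, with the matched letters in capitals. Each stretch was placed to hold as many matches as possible, and promoters without a match were passed over. Among these is an Aldoa promoter at chr7:126800398-126800697. Hk1, also higher, and Pdk1, also lower, are not shown, and each had promoters with and without a match. A match describes letters, not a bound site.
Hk2, chr6:82774477-82774536, minus strand: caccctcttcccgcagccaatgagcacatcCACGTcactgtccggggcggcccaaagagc
Pfkp, chr13:6648785-6648844, minus strand: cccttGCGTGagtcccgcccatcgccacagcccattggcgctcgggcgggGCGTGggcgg
Aldoa, chr7:126799351-126799410, minus strand: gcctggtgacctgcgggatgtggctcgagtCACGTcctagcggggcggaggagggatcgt
Hif1a, chr12:73907727-73907786, plus strand: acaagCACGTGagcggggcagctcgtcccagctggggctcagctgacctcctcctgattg
Slc16a3, chr11:120949007-120949066, plus strand: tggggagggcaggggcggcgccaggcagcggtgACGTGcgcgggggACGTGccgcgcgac
Ldhb, chr6:142508054-142508113, minus strand: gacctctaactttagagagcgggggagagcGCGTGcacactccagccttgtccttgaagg
The Hk2 stretch ends 23 bases before the start and holds 1 match. The Hif1a stretch holds 2 overlapping matches, 1 on each strand, and the Pfkp and Slc16a3 stretches hold 2 each. The promoters of Bpgm, Tpi1, Gpi1, Dlat and Dld held no match in this window.

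Together the 32 genes held 0.687% of all UMIs in WT Tcrg-V6-only cells (exact interval 0.675 to 0.698%). The share was 0.591% in WT Tcrg-V4-only cells (0.579 to 0.603%) and 0.605% in KO-labelled Tcrg-V1 cells (0.601 to 0.609%). The share also differed by detection of Tmem176b. KO-labelled Tcrg-V1 cells with a Tmem176b UMI (911 cells) gave 0.716%, and those without (1969 cells) 0.549%. The same order held in WT Tcrg-V4-only cells, with 0.646% in 168 cells with and 0.555% in 242 cells without a Tmem176b UMI, and in WT Tcrg-V6-only cells, with 0.703% in 458 cells and 0.518% in 62 cells. Cells with a Ly6c2 UMI gave 0.551% in KO-labelled Tcrg-V1 cells (623 cells) and 0.535% in WT Tcrg-V4-only cells (103 cells), against 0.622% and 0.616% in cells without; only 15 WT Tcrg-V6-only cells had a Ly6c2 UMI and they were not summed. Single cells spread widely within every group: the middle 50% of KO-labelled Tcrg-V1 cells lay between 0.435% and 0.709%, and that of WT Tcrg-V6-only cells between 0.534% and 0.806%.

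**Figure D1:**
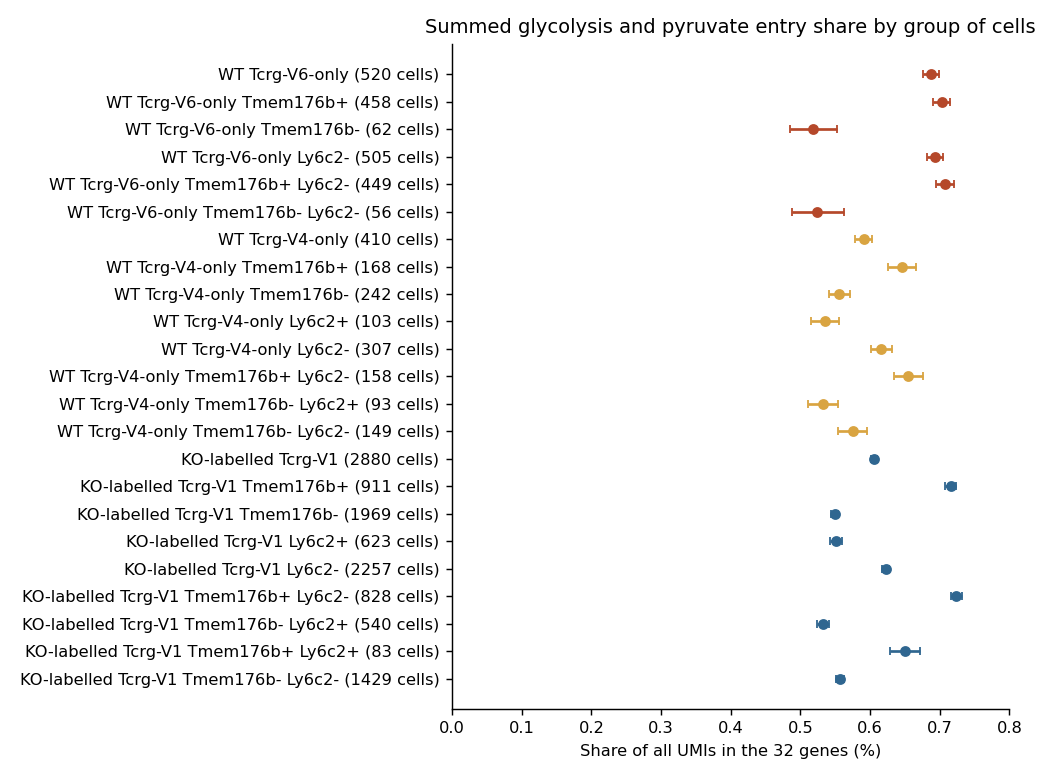
Summed share of all UMIs in the 32 genes (x axis, percent) for each group of cells with its number of cells (y axis). Points are the pooled share and bars exact 95% intervals covering counting error only; in each colour (chain group) the Tmem176b+ rows lie to the right of the Tmem176b- rows, for example 0.716% against 0.549% in KO-labelled Tcrg-V1 cells.

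The level of a gene is given below as CPM of the group. A UMI counts a molecule once, so levels were not divided by transcript length. Gapdh, which oxidises glyceraldehyde phosphate, was the most abundant gene, with 2133 CPM in WT Tcrg-V6-only, 2158 CPM in WT Tcrg-V4-only and 2105 CPM in KO-labelled Tcrg-V1 cells. It made up 31.1%, 36.5% and 34.8% of the summed UMIs. Ldha, the lactate dehydrogenase subunit that favours lactate formation, followed with 916, 969 and 942 CPM. For both genes the interval of the ratio included 0 in every pair of the 3 groups. The next 3 genes were Eno1 (enolase), Pkm (pyruvate kinase) and Aldoa (aldolase), at 296 to 632 CPM. Gpi1, Hif1a, Pfkp, Pgk1, Pgam1, Mpc1, Mpc2 and Hk2 lay between 35.5 and 318 CPM. Pfkm, Aldoc and Eno3, the muscle phosphofructokinase, brain aldolase and muscle enolase, stayed at or under 4.04 CPM in the 3 groups. Gapdh, Ldha, Eno1, Pgk1, Pgam1, Tpi1 and Aldoa have processed copies or near-identical genes elsewhere, and reads that fit several copies cannot be assigned from these files.

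**Figure D2:**
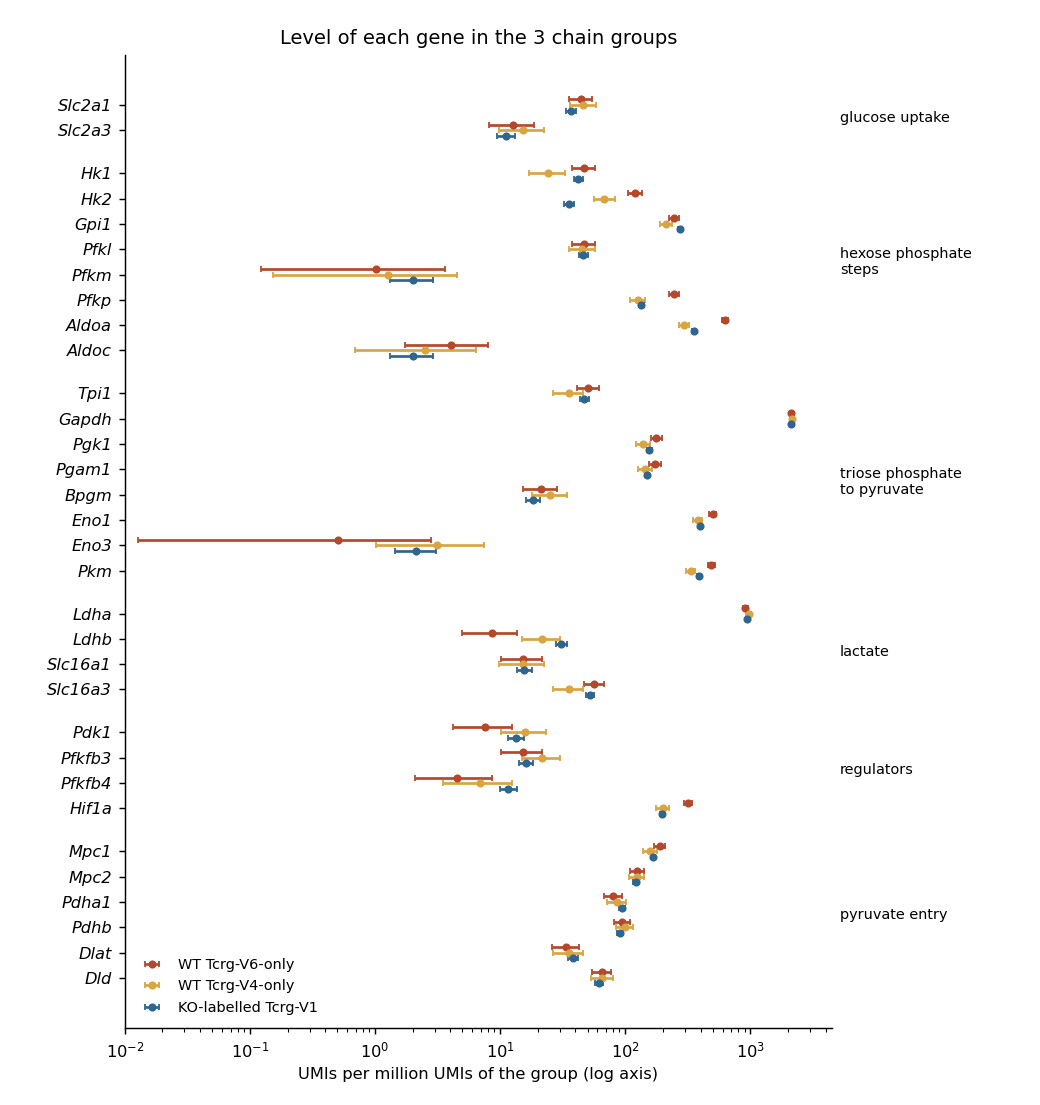
Level of each of the 32 genes (y axis, ordered by step) in CPM on a log axis, in the 3 chain groups (colours). Bars are exact 95% intervals covering counting error only; Hk2 separates the groups (119.7, 68.2 and 35.5 CPM), whereas Gapdh, Ldha and the pyruvate entry genes lie close together.

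The first comparison asked how far cells of the WT library differ in these genes by chain. WT Tcrg-V6-only cells held more of the summed UMIs than WT Tcrg-V4-only cells, by 0.22 on the log2 scale (0.18 to 0.26). The 8 genes from hexokinase to aldolase were higher by 0.79 (0.69 to 0.89), with 0.134% against 0.0777% of UMIs. The regulators were higher by 0.51 (0.32 to 0.69), with Hif1a holding most of their UMIs. Steps from triose phosphate to pyruvate differed by 0.14 (0.085 to 0.19), with 0.354% against 0.322% of UMIs, lactate genes by -0.064 (-0.16 to 0.031) and pyruvate entry genes by 0.047 (-0.080 to 0.17). Of 28 members with at least 30 UMIs over both groups, 6 were higher by at least 1.5-fold (background over all 8133 genes: 11.9%) and 2 were lower (background 12.3%). The median member lay at 0.022 against -0.015 for all genes.

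Aldoa (chr7:126795234-126800751, GENCODE M21, GRCm38) was at 632 CPM in WT Tcrg-V6-only and 296 CPM in WT Tcrg-V4-only cells, a log2 ratio of 1.09 (0.94 to 1.25). Pfkp (chr13:6579768-6648777), the platelet-type phosphofructokinase, was at 245 and 126 CPM (0.96, 0.71 to 1.20). Both intervals lay wholly above 1.5-fold. Hk2 (chr6:82725025-82774454), the inducible hexokinase that binds mitochondria, was at 119.7 and 68.2 CPM (0.81, 0.48 to 1.15), and Hk1, the constitutive form, at 47.0 and 24.0 CPM (0.97, 0.41 to 1.55). Hif1a (chr12:73901375-73947530) was at 318 and 199 CPM (0.68, 0.48 to 0.88). Slc16a3, the lactate exporter MCT4, was at 56.6 and 35.4 CPM (0.68, 0.20 to 1.17). These 6 genes were higher with intervals above 0, though for Hk2, Hk1, Hif1a and Slc16a3 the interval reached below 1.5-fold. Ldhb, the subunit that favours pyruvate formation, was lower at 8.59 against 21.5 CPM (-1.32, -2.26 to -0.44), on 17 and 34 UMIs. Pdk1, which shuts off pyruvate dehydrogenase, was lower at 7.58 against 15.8 CPM (-1.06, -2.09 to -0.080), on 15 and 25 UMIs. Beside these values, the 12 myeloid markers summed to 309 CPM in WT Tcrg-V6-only cells (Itgam, C1qa, Adgre1, S100a8 and S100a9 at 0). In WT Tcrg-V4-only cells they summed to 515 CPM (C1qa, C1qb and S100a8 at 0). The members of this list went opposite ways: Cst3 was at 292 and 174 CPM, Lyz2 at 8.08 and 288 CPM and Cd14 at 6.06 and 27.8 CPM. The 7 B cell markers summed to 53.0 CPM (Ms4a1 among those at 0) and 137 CPM (none at 0). The part of these markers was not tested. Without cells that carried markers of other types the summed ratio was 0.15 (0.099 to 0.20). That setting left 307 of 520 WT Tcrg-V6-only and 291 of 410 WT Tcrg-V4-only cells, and the cause of the change was not tested.

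The second pair of comparisons set KO-labelled Tcrg-V1 cells beside the WT groups. Against WT Tcrg-V4-only cells the summed share differed by 0.035 on the log2 scale (0.0041 to 0.066), a difference whose sign turned under 4 of 10 other settings (-0.024 to -0.015). Of 31 members tested 2 were higher (background 13.2%) and 1 was lower (background 9.47%); the median member was 0.040 and the median gene 0.074. Hk1 was higher in KO-labelled Tcrg-V1 cells, with 42.0 against 24.0 CPM (0.81, 0.33 to 1.32). Pfkfb4, which makes the activator of phosphofructokinase, was at 11.7 against 6.95 CPM (0.75, -0.13 to 1.78). Hk2 was lower, with 35.5 against 68.2 CPM (-0.94, -1.25 to -0.63). Thus the constitutive and the inducible hexokinase differed in opposite directions between these cells of the 2 libraries.

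Against WT Tcrg-V6-only cells the summed share was lower in KO-labelled Tcrg-V1 cells by 0.18 (log2 ratio -0.18, -0.21 to -0.16). Of 31 members 4 were higher (background 21.8%) and 5 were lower (background 13.5%); the median member was -0.095 and the median gene 0.098. Hk2 had the lowest ratio of the members tested, 35.5 against 119.7 CPM (-1.76, -1.98 to -1.52). Aldoa (352 against 632 CPM, -0.84), Pfkp (135 against 245 CPM, -0.86) and Hif1a (197 against 318 CPM, -0.69) were also lower. Ldhb was higher at 31.0 against 8.59 CPM (1.85, 1.15 to 2.64), and so were Pdk1 (13.4 against 7.58 CPM, 0.82, 0.060 to 1.69) and Pfkfb4 (11.7 against 4.55 CPM, 1.36, 0.40 to 2.52). Aldoc (27 and 8 UMIs; -1.02, -2.20 to 0.33) and Eno3 (29 UMIs and 1 UMI; 2.08, -0.51 to 7.44) passed 1.5-fold on few UMIs with intervals that include 0. The direction of each of these differences is drawn from the library labelled KO. Summed levels of 13 handling stress genes were 7993 CPM in KO-labelled Tcrg-V1 cells, 11071 CPM in WT Tcrg-V6-only cells and 10941 CPM in WT Tcrg-V4-only cells, with none at 0. Without the cells high in these genes (2259 KO-labelled Tcrg-V1 and 378 WT Tcrg-V6-only cells left) Hk2 and Aldoa remained past 1.5-fold in the same direction. Stress levels of the cells left are not given and cannot be told apart from the library, and their part was not tested.

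**Figure D3:**
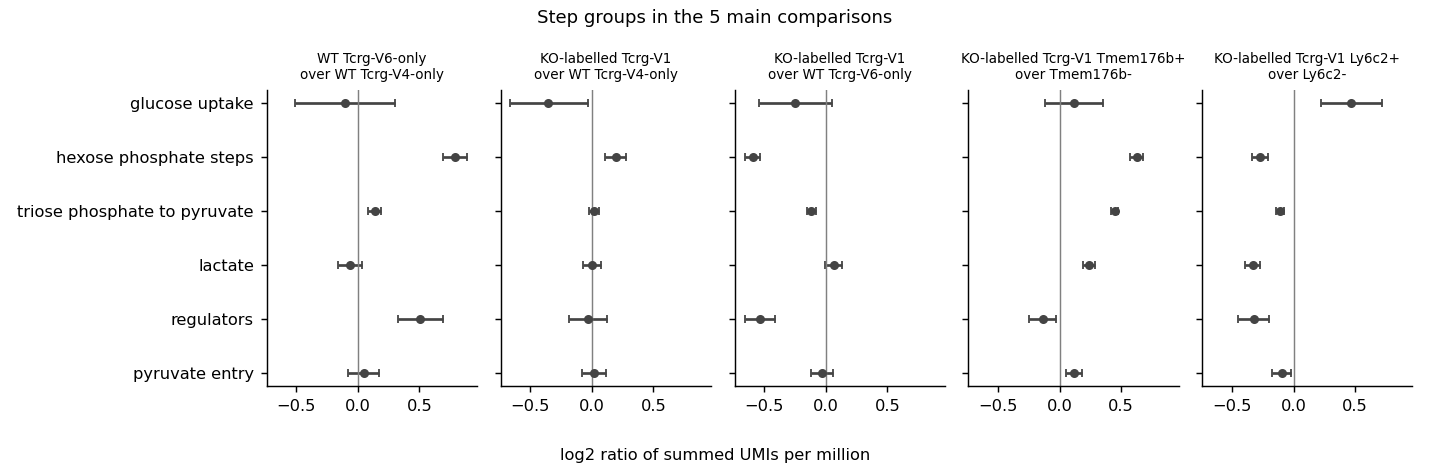
log2 ratio of the summed level of each step group (y axis) in the 5 main comparisons (panels, named above each). Points are pooled ratios and bars exact 95% intervals covering counting error only; the hexose phosphate steps lie at 0.79 for WT Tcrg-V6-only over WT Tcrg-V4-only cells and at 0.62 for Tmem176b+ over Tmem176b- KO-labelled Tcrg-V1 cells, whereas pyruvate entry stays between -0.098 and 0.12.

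Of the 5 main comparisons, the largest summed difference was seen within the library labelled KO, where strain, sort and library are shared. Tcrg-V1 cells with a Tmem176b UMI exceeded those without by 0.38 on the log2 scale (0.36 to 0.40). Hexose phosphate steps were higher by 0.62 (0.57 to 0.68), triose phosphate to pyruvate steps by 0.45 (0.42 to 0.47) and lactate genes by 0.24 (0.19 to 0.29). Pyruvate entry genes differed by 0.12 (0.048 to 0.18), glucose transporters by 0.12 (-0.12 to 0.35), and regulators were lower by 0.14 (log2 ratio -0.14, -0.25 to -0.029). Of 29 members 5 were higher by at least 1.5-fold (background 11.7%) and 0 were lower (background 13.4%). The median member lay at 0.20 and the median gene at -0.079.

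Hk2 stood apart: 87.5 CPM with and 8.92 CPM without a Tmem176b UMI, a log2 ratio of 3.29 (2.94 to 3.66) on 400 and 80 UMIs. Aldoa was at 524 and 264 CPM (0.99, 0.91 to 1.07) and Pfkp at 192 and 106 CPM (0.86, 0.72 to 0.99). Slc16a3 was at 70.2 and 42.7 CPM (0.72, 0.50 to 0.93), and Eno1 at 527 and 332 CPM (0.67, 0.59 to 0.74). Gapdh was at 2553 and 1877 CPM (0.44, 0.41 to 0.48), under 1.5-fold but with the largest difference in CPM. Hk1 differed by -0.036 (-0.30 to 0.22) and Gpi1 by -0.10 (-0.20 to -0.0035), so that the 2 hexokinases again parted. Hif1a was at 182 CPM with and 204 CPM without a Tmem176b UMI (-0.16, -0.28 to -0.044), although it was the regulator with the clearest excess in WT Tcrg-V6-only cells.

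In WT Tcrg-V4-only cells the same split gave 0.22 for the summed share (0.16 to 0.28). There 2 of 25 members were higher (Hk2 and Aldoa, background 11.2%) and 2 were lower (Pfkfb3 and Bpgm, background 16.9%). Hk2 was at 125.8 CPM with and 31.2 CPM without a Tmem176b UMI (2.01, 1.39 to 2.67), and Aldoa at 376 and 245 CPM (0.62, 0.35 to 0.88). Pfkp (0.52, 0.10 to 0.93) and Eno1 (0.49, 0.25 to 0.72) lay in the same direction with intervals above 0. Bpgm was at 11.3 and 34.3 CPM on 7 and 33 UMIs (-1.60, -3.02 to -0.40). Hif1a was at 197 and 200 CPM (-0.027, -0.37 to 0.31). Handling stress genes summed to 13499 CPM with and 9293 CPM without a Tmem176b UMI. Myeloid markers summed to 402 CPM (C1qa, C1qb, Csf3r and S100a8 at 0) and 589 CPM (C1qa, C1qb, Adgre1, S100a8 and S100a9 at 0), and B cell markers to 85.5 and 170 CPM (none at 0); their part was not tested.

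**Figure D4:**
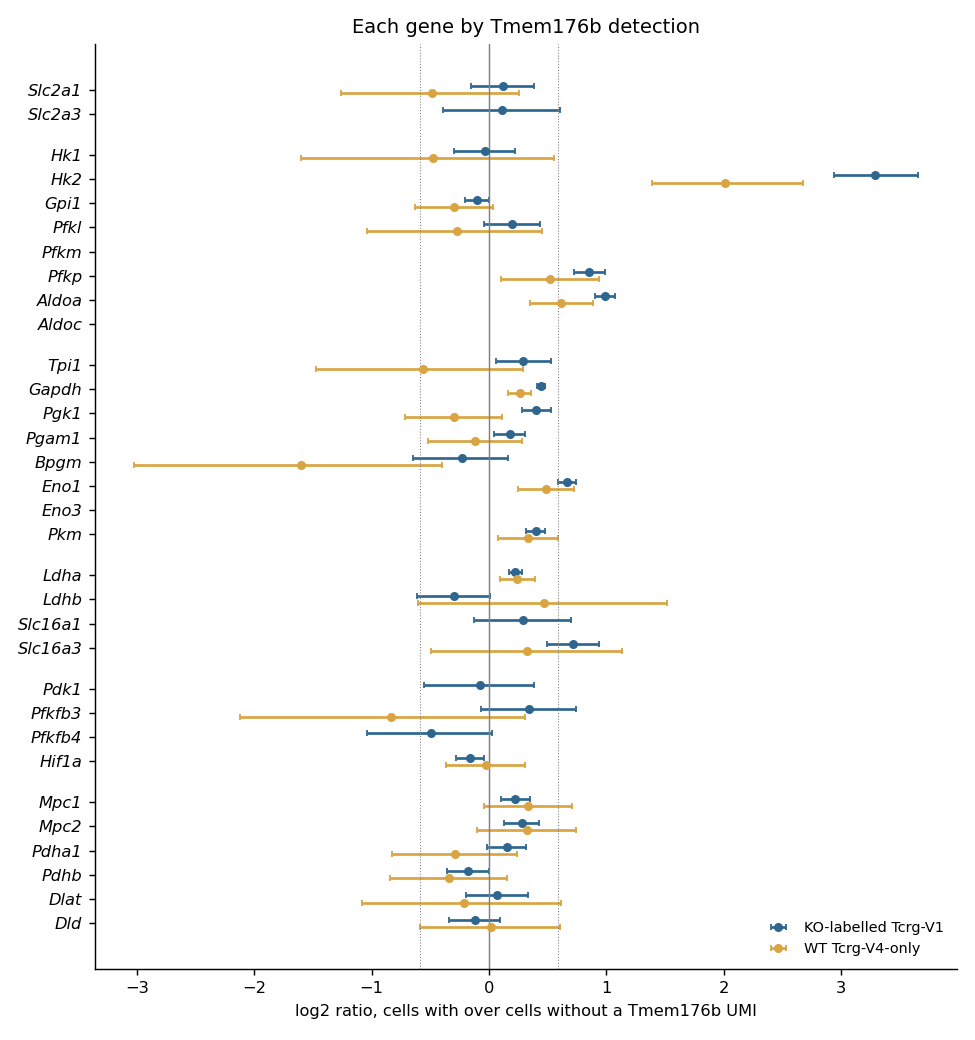
log2 ratio of each gene's level in cells with over cells without a Tmem176b UMI (x axis), for members with at least 30 UMIs over both groups, in KO-labelled Tcrg-V1 and WT Tcrg-V4-only cells (colours). Bars are exact 95% intervals covering counting error only and dotted lines mark 1.5-fold; Hk2 lies farthest right in both, at 3.29 and 2.01.

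The other 11 IL-17-type markers, leaving out Tmem176b, summed to 2732.5 CPM in Tmem176b+ and 263 CPM in Tmem176b- KO-labelled Tcrg-V1 cells. Tmem176b+ cells were deeper (median 4542 against 3967 UMIs), and 13 handling stress genes summed to 10187 against 6875 CPM. The 12 myeloid markers summed to 302 CPM (S100a8 at 0) against 136 CPM (S100a8 and S100a9 at 0). Among them Lyz2 was at 61.5 against 6.02 CPM (281 and 54 UMIs) and Cst3 at 213 against 124 CPM. C1qb, Cd14 and Cd68 were also higher by at least 1.5-fold, and none was lower by as much. The part of the stress and myeloid genes was not tested. When every cell was thinned to 2000 UMIs and groups were formed again, the summed ratio was 0.39. Without cells high in stress genes it was 0.36. Without cells carrying markers of other types (1822 of 2880 Tcrg-V1 cells left) it was 0.41. At the same thinned depth an Hk2 UMI was found in 15.6% of 437 Tmem176b+ and 2.61% of 1304 Tmem176b- KO-labelled Tcrg-V1 cells (26.1% and 2.84% before thinning). The same share was 17.6% of 484 WT Tcrg-V6-only cells and 10.7% of 271 WT Tcrg-V4-only cells. Aldoa was found in 62.0% against 39.6% of the Tmem176b+ and Tmem176b- cells (83.1% and 59.6% before thinning), and Hif1a in 29.3% against 29.5% (53.1% and 51.1%).

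The last main comparison took Ly6c2 detection in KO-labelled Tcrg-V1 cells. Cells with a Ly6c2 UMI held less of the summed UMIs, by 0.17 on the log2 scale (log2 ratio -0.17, -0.20 to -0.15). Of 29 members 1 was higher (background 5%) and 1 was lower (background 9.22%); the median member was -0.14 and the median gene -0.044. Hk2 was at 9.98 CPM with and 43.4 CPM without a Ly6c2 UMI (-2.12, -2.68 to -1.60). The glucose transporter Slc2a3 was at 15.6 and 9.87 CPM (0.66, 0.14 to 1.16), and Slc2a1 at 45.2 and 34.1 CPM (0.41, 0.12 to 0.69), so that glucose uptake was the single step group higher in Ly6c2+ cells (0.47, 0.22 to 0.71). Lactate genes were lower by 0.33 (log2 ratio -0.33, -0.39 to -0.27), with Ldha at 783 and 992 CPM, and Hif1a was lower at 154 and 210 CPM (-0.44, -0.59 to -0.30). Handling stress genes summed to 7680 against 8091 CPM, and myeloid markers to 262 CPM (S100a8 and S100a9 at 0) against 170 CPM (Csf3r and S100a8 at 0). Among the myeloid markers, Lyz2 was at 90.2 against 4.45 CPM (289 and 46 UMIs). Cd68, C1qb and Cd14 were also higher by at least 1.5-fold, and no marker of that list was lower by as much. The 14 cell cycle genes summed to 490 against 286 CPM (none at 0), among them Pclaf at 49.6 against 8.32 CPM. None of that list was lower by at least 1.5-fold. The part of these genes was not tested.

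WT Tcrg-V4-only cells gave -0.20 for the same split (-0.27 to -0.14), with 2 of 25 members higher (Slc2a1 and Tpi1, background 7.75%) and 2 lower (Hk2 and Ldhb, background 18.7%). Slc2a1 was at 76.8 CPM with and 32.2 CPM without a Ly6c2 UMI (1.26, 0.55 to 1.96), and glucose uptake as a whole was higher by 0.99 (0.38 to 1.59). Hk2 was at 6.06 and 96.5 CPM on 3 and 105 UMIs (-3.99, -6.29 to -2.41). Myeloid markers summed to 1263 CPM in the Ly6c2+ cells (C1qa, C1qb, Adgre1, S100a8 and S100a9 at 0) and 175 CPM in the others (C1qa, C1qb, Csf3r and S100a8 at 0). Of these, Lyz2 was at 889 and 14.7 CPM. Handling stress genes summed to 7807 and 12365 CPM, and B cell markers to 62.6 CPM (4 of 7 at 0) and 171 CPM (none at 0); their part was not tested.

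To see whether differences between chains were present within 1 state, Tmem176b+ Ly6c2- cells were compared across groups. Their summed shares were 0.707% in 449 WT Tcrg-V6-only, 0.655% in 158 WT Tcrg-V4-only and 0.724% in 828 KO-labelled Tcrg-V1 cells. KO-labelled Tcrg-V1 cells exceeded WT Tcrg-V6-only cells by 0.033 (0.0029 to 0.064) and WT Tcrg-V4-only cells by 0.14 (0.095 to 0.19). Against WT Tcrg-V6-only cells 3 of 29 members were higher (Pdk1, Ldhb and Pfkfb4, background 13.6%) and 1 was lower (Hif1a, background 9.19%). Against WT Tcrg-V4-only cells 6 of 29 were higher (Pdk1, Tpi1, Pfkfb4, Hk1, Slc16a3 and Pgk1, background 18.8%) and 0 were lower (background 8.99%). Between the WT groups, 8 of 27 were higher in Tcrg-V6-only cells (background 14.9%) and 1 was lower (background 8.29%). In the order WT Tcrg-V6-only, WT Tcrg-V4-only and KO-labelled Tcrg-V1, handling stress genes summed to 11321, 13804 and 10189 CPM in these cells. Myeloid markers summed to 321, 163 and 230 CPM (5, 8 and 2 of 12 at 0), of which Cst3 gave 302 CPM in WT Tcrg-V6-only and 156 CPM in WT Tcrg-V4-only cells. The part of these genes was not tested.

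Hk2, which parted the whole groups, was at 129.4 CPM in WT Tcrg-V6-only, 138.5 CPM in WT Tcrg-V4-only and 94.8 CPM in KO-labelled Tcrg-V1 cells of this state. The KO-labelled cells were lower than the WT Tcrg-V6-only cells by a log2 ratio of -0.45 (-0.69 to -0.21), under 1.5-fold. Aldoa was at 656, 375 and 548 CPM in the same order. Hif1a was at 316, 192 and 189 CPM, lower in KO-labelled Tcrg-V1 than in WT Tcrg-V6-only cells by 0.75 (log2 ratio -0.75, -0.91 to -0.58). Ldhb was at 9.82, 28.4 and 25.4 CPM, higher in KO-labelled Tcrg-V1 than in WT Tcrg-V6-only cells (1.37, 0.62 to 2.21). Within Tmem176b+ Ly6c2- cells Hif1a, Ldhb, Pdk1 and Pfkfb4 thus stayed past 1.5-fold in this comparison, in the direction seen between the whole groups. Tmem176b- Ly6c2+ cells held 0.532% in both WT Tcrg-V4-only (93 cells) and KO-labelled Tcrg-V1 cells (540 cells), with Hk2 at 6.85 and 5.96 CPM on 3 and 16 UMIs; 4 of 28 members were higher in the KO-labelled cells (background 18.7%) and 2 lower (background 8.69%). Myeloid markers summed to 1069 CPM in these WT Tcrg-V4-only cells (5 of 12 at 0) and 146 CPM in the KO-labelled ones (3 of 12 at 0), and their part was not tested.

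**Figure D5:**
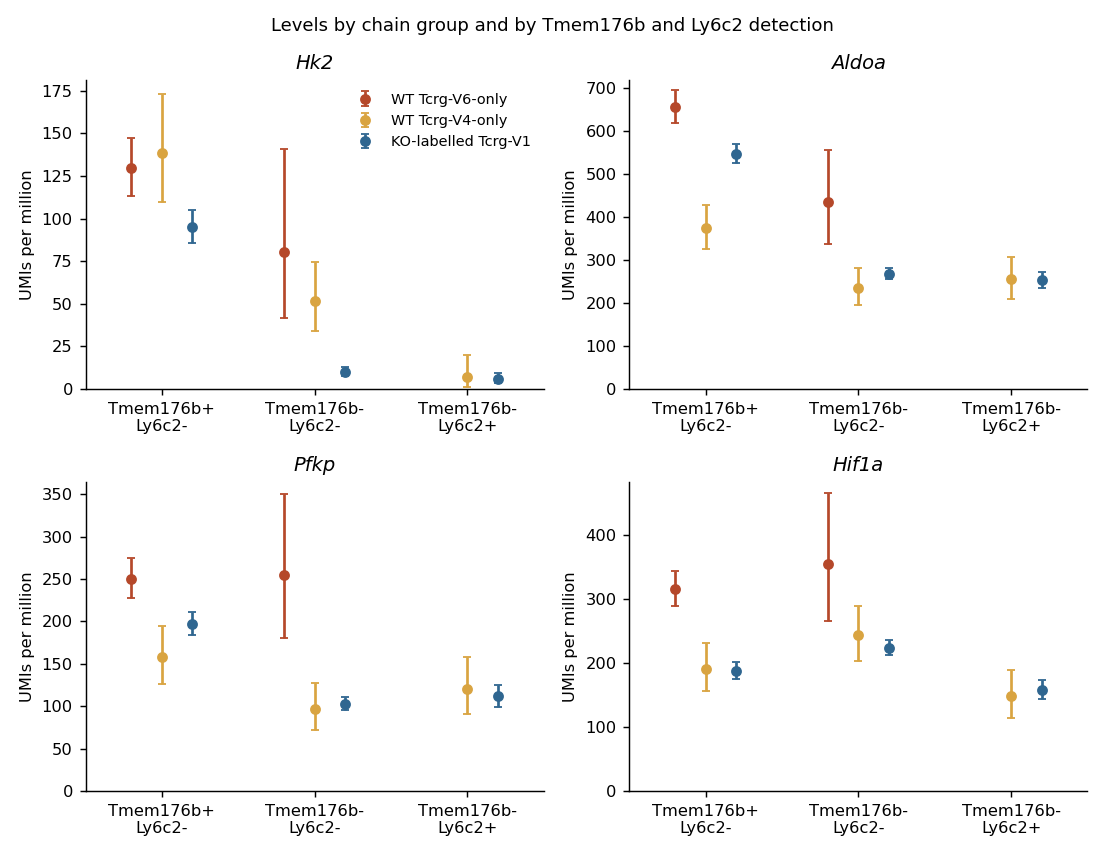
Levels of Hk2, Aldoa, Pfkp and Hif1a in CPM (y axes from 0) by detection of Tmem176b and Ly6c2 (x axis) and chain group (colours); WT Tcrg-V6-only cells with Ly6c2 alone were too few to plot. Bars are exact 95% intervals covering counting error only; Hk2 in KO-labelled Tcrg-V1 cells is 94.8 CPM in Tmem176b+ Ly6c2-, 10.2 CPM in Tmem176b- Ly6c2- and 5.96 CPM in Tmem176b- Ly6c2+ cells, whereas Hif1a is highest in WT Tcrg-V6-only cells in both states plotted.

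Genes that bring pyruvate into mitochondria differed little. Mpc1 and Mpc2, the mitochondrial pyruvate carrier, were at 158 to 188 CPM and 121 to 124 CPM in the 3 chain groups. Pdha1, Pdhb, Dlat and Dld, subunits of the pyruvate dehydrogenase complex, were at 33.8 to 99.2 CPM. None of these 6 genes passed 1.5-fold in any of the 5 main comparisons (background 5 to 21.8% per direction). The remaining members without a call were Slc2a1, Gpi1, Pfkl, Tpi1, Gapdh, Pgk1, Pgam1, Bpgm, Pkm, Ldha, Slc16a1 and Pfkfb3, all within 1.5-fold in the 5 main comparisons. Most of all genes tested were also within 1.5-fold, so these counts say little about the members. Pfkm had 2 UMIs in each WT group and 27 in KO-labelled Tcrg-V1 cells, and was tested in none of them.

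Other genes of the pathway and its neighbours were taken from lists chosen by function. Of 7 pentose phosphate genes, which branch off glucose phosphate, 0 passed 1.5-fold in any of the 5 main comparisons (background 5 to 21.8% per direction). Of 17 tricarboxylic acid cycle genes tested, 1 was lower in WT Tcrg-V6-only than in WT Tcrg-V4-only cells (background 12.3%). This was Idh2, on 12 and 24 UMIs. In KO-labelled Tcrg-V1 over WT Tcrg-V6-only cells 2 were higher (background 21.8%), namely Idh2 (22.5 against 6.06 CPM) and Suclg1 (66.6 against 43.4 CPM). No cycle gene passed in the other 3 comparisons (background 5 to 13.4% per direction). Of further glycolysis and pyruvate genes 11 to 16 of 29 could be tested. Slc2a6 was higher in WT Tcrg-V6-only than in WT Tcrg-V4-only cells (30 and 11 UMIs, background 11.9%). In KO-labelled Tcrg-V1 over WT Tcrg-V4-only cells, Slc2a6 (59 and 11 UMIs) and Eno1b (31 and 8 UMIs) were lower (background 9.47%), with intervals that include 0. In KO-labelled Tcrg-V1 cells with over without a Tmem176b UMI 4 of 16 were higher (background 11.7%), among them Slc2a8 (13.8 against 8.48 CPM) and Pdp2 (15.3 against 8.03 CPM), and 3 were lower (background 13.4%), among them Pdk2 and Minpp1. KO-labelled Tcrg-V1 over WT Tcrg-V6-only cells gave 2 of 16 higher (background 21.8%), Pdk2 and Pdk3, and 4 lower (background 13.5%), among them Pdp1. By Ly6c2 detection 0 were higher (background 5%) and 3 lower (background 9.22%), among them Adpgk. Pklr, the pyruvate kinase of liver and red cells, had 0 UMIs in all 3 chain groups.

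Of 19 hypoxia pathway genes outside glycolysis tested in KO-labelled Tcrg-V1 cells, 5 were higher with a Tmem176b UMI (background 11.7%) and 2 were lower (background 13.4%). Ero1l, which oxidises proteins in the endoplasmic reticulum, was at 155 and 43.8 CPM, Ddit4, an inhibitor of mTORC1, at 112 and 34.4 CPM, and Epas1 (HIF-2α) at 56.9 and 18.6 CPM. Bnip3l and Kdm3a were lower, at 291 against 440 CPM and 46.8 against 79.8 CPM. WT Tcrg-V6-only over WT Tcrg-V4-only cells gave 4 of 16 higher (background 11.9%) and 0 lower (background 12.3%), again with Ero1l (194 against 79.0 CPM), Ddit4 (104 against 51.2 CPM) and Epas1 (86.9 against 48.6 CPM), joined by Mxi1 (57.1 against 34.7 CPM). With over without a Ly6c2 UMI 0 of 19 were higher (background 5%) and 5 lower (background 9.22%), among them Ero1l (39.3 against 94.6 CPM), Ddit4, Epas1 and Egln3. Against WT Tcrg-V4-only cells KO-labelled Tcrg-V1 cells had 0 of 19 higher (background 13.2%) and 2 lower (background 9.47%), among them Epas1. Against WT Tcrg-V6-only cells they had 1 higher (Arnt, background 21.8%) and 4 lower (Epas1, Ddit4, Ero1l and Mxi1, background 13.5%). Among 17 growth and glucose sensing genes the amino acid transporter subunit Slc3a2 was higher with a Tmem176b UMI in KO-labelled Tcrg-V1 cells (317 against 139 CPM), where 3 were higher (background 11.7%), Akt1 among them, and Pik3cd was lower (background 13.4%). KO-labelled Tcrg-V1 over WT Tcrg-V6-only cells gave 6 higher (background 21.8%), among them Txnip, which restrains glucose uptake (347 against 212 CPM), Myc (23.3 against 9.09 CPM), Rptor, Mlxip and Pik3cd, and 3 lower (Slc3a2, Slc7a5 and Akt1, background 13.5%). Against WT Tcrg-V4-only cells, KO-labelled Tcrg-V1 cells had 1 higher (Trp53inp1, background 13.2%) and 2 lower (background 9.47%), Slc7a5 among them, and WT Tcrg-V6-only cells had 1 higher (Trp53inp1, background 11.9%) and 4 lower (background 12.3%), Rptor among them. By Ly6c2 detection 0 were higher (background 5%) and 1 was lower (background 9.22%).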

How the data were processed

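Per the file headers and labels, the authors deposited raw UMI counts per gene and barcode from Cell Ranger 7.0.0 on mm10; the methods give an earlier Cell Ranger and a 5′ V(D)J kit, the labels a 3′ one. Settings for introns and strand: not given in the sources used here. Cells with over 200 and under 4000 genes and under 10% mitochondrial UMIs were kept, as in the study's methods. No doublet caller was run and free RNA was not removed. Counts were summed per group and divided by all UMIs of the group (CPM). Shares carry exact Clopper-Pearson intervals and log2 ratios exact conditional binomial intervals, both at 95% and covering counting error only. Genes with at least 30 UMIs over both groups were called at 1.5-fold; for a gene at 0 in 1 group the ratio used a floor of 3 UMIs. No test was made, since each group has 1 library. Members and lists were chosen with earlier results of these data known. All 32 genes are accounted for, with full values for those past 1.5-fold in a main comparison and for the 3 most abundant. List genes past 1.5-fold are named where they had at least 100 UMIs, and some with fewer are named with their UMIs. Equal-depth values come from cells thinned to 2000 UMIs; 380 cells of the WT library and 828 of the other were shallower and left out. Gene positions come from GENCODE M21, which held 32235 of 32285 identifiers. Code was tested on simulated data. Python 3.11.15, numpy 2.4.6, scipy 1.17.1, pandas 2.3.3 and matplotlib 3.10.9 were used. The alternatives tried were a mean over cells, other denominators, gene and cell filters, thinning, other fold and UMI minimums, and leaving out classes of cells.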

Additional observations from a re-analysis of the deposited data

How the results depend on the processing

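No paired analysis was possible because there is 1 library for each genotype, and no replicate could be left out for that reason. Of 50 recomputed summed log2 ratios 27 moved by less than their counting interval, 19 moved further without changing sign and 4 turned; of 40 recomputed counts 31 stayed within 1.5 times and 9 did not. The 4 that turned all compare KO-labelled Tcrg-V1 with WT Tcrg-V4-only cells (0.035): the ratio was -0.015 as a mean over cells, -0.021 after thinning, -0.024 without cycling cells and -0.019 without cells with markers of other types, and 0.074 without Gapdh. WT Tcrg-V6-only over WT Tcrg-V4-only gave 0.14 with a denominator without ribosomal and mitochondrial genes, 0.34 without Gapdh, 0.15 without cells with markers of other types and 0.26 without cells high in stress genes. KO-labelled Tcrg-V1 over WT Tcrg-V6-only gave -0.11 with that denominator, -0.26 without Gapdh, -0.24 after thinning and -0.22 without cycling cells. KO-labelled Tcrg-V1 cells with over without a Tmem176b UMI gave 0.41 as a mean over cells, 0.34 with that denominator, 0.35 without Gapdh, 0.36 without the cell filter, 0.42 without cycling cells and 0.41 without cells with markers of other types. The Ly6c2 comparison gave -0.13 with that denominator, -0.22 after thinning, -0.21 without cycling cells and -0.14 without cells high in stress genes. At 2-fold the counts of members were 3, 0, 5, 1 and 1 in the order of the 5 comparisons, against 8, 3, 9, 5 and 2. The count was 5 after thinning for WT Tcrg-V6-only over WT Tcrg-V4-only, of which 4 were called before. It was 5 as a mean over cells and 8 with 2 or more chain UMIs for KO-labelled Tcrg-V1 over WT Tcrg-V4-only, and 1 as a mean over cells for Ly6c2. The cause of these changes was not tested. Shares over all genes are not given for these settings, so the counts are not read as results about the members. Each member past 1.5-fold in a main comparison with an interval apart from 0 kept its direction under 9 alternatives; members within 1.5-fold were not recomputed 1 by 1. Hk2 with over without Tmem176b ranged from 2.84 to 4.19, whereas Slc2a3 by Ly6c2 stayed past 1.5-fold in 4 of 9. Depth limits Pdk1, Pfkfb4, Aldoc, Eno3 and Ldhb, which had few UMIs in the WT groups.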

Other observations

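Cells outside the named chain groups held less of the summed UMIs than those in them. KO-labelled cells without a Tcrg-V1 UMI (3754 cells, median 3129 UMIs) gave 0.522%, with Hk2 at 23.1 CPM. WT cells outside both chain groups (1575 cells, median 3137 UMIs) gave 0.572%, with Hk2 at 63.1 CPM. The WT cells outside both groups include cells with UMIs of more than 1 γ variable gene: 754 WT cells had a Tcrg-V6 UMI, and 520 of them had no other. Sorting was by surface Vγ1, so the absence of a chain UMI does not mean absence of the chain.

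In KO-labelled Tcrg-V1 cells the summed share was higher in deeper cells. With the cells ranked by depth and split into 4 equal bins, it was, from shallow to deep, 0.538%, 0.580%, 0.610% and 0.636%. The bins of WT Tcrg-V6-only cells (0.653%, 0.698%, 0.721% and 0.671%) and of WT Tcrg-V4-only cells (0.588%, 0.645%, 0.590% and 0.566%) showed no such order.

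The 83 KO-labelled Tcrg-V1 cells with UMIs of both Tmem176b and Ly6c2 had a median of 6102 UMIs and a summed share of 0.650%. Their Hk2 level was 30.9 CPM and that of Aldoa 338 CPM, between the levels of cells with Tmem176b alone (94.8 and 548 CPM) and Ly6c2 alone (5.96 and 253 CPM). Doublets were not removed, and their part was not tested.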
